A study of Mus musculus with 21 samples.

Results

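Left ventricles under pressure overload with and without a PDE9A inhibitor were compared by RNA sequencing. The members were chosen by label alone: the 6 libraries labelled TAC+PDE9A-I and the 5 labelled TAC, 11 of the 21 libraries of the study. All animals were C57BL/6J mice. Transverse aortic constriction (TAC) narrows the aorta and loads the left ventricle with pressure. The TAC group had the surgery and no drug. The TAC+PDE9A-I group had the same surgery and received PF-04449613, an inhibitor of phosphodiesterase 9A, over 4 weeks from 1 week after surgery. The other groups were 5 sham-operated mice and 5 TAC mice given a PDE5A inhibitor. Each library carries its own ear tag, so that each is a separate animal. The labels give no dose, vehicle, sex or age. Libraries were made from 500 ng of total RNA with a stranded total RNA kit.

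Cyclic GMP is made in heart muscle by receptors for natriuretic peptides and by the soluble guanylate cyclase that nitric oxide activates, and it acts largely through protein kinase G. Phosphodiesterases break it down. PDE9A is selective for cyclic GMP and in heart muscle acts mainly on the pool made under natriuretic peptide receptors, whereas PDE5A acts on the pool made under nitric oxide. Pressure overload is known to bring back genes of the fetal heart such as Nppa and Myh7, to raise matrix genes and to lower genes of calcium handling and fatty acid oxidation. The comparison asks what the inhibitor changed in an overloaded ventricle.

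The deposited totals lay between 22.67 and 30.49 M counts in the TAC libraries and between 24.26 and 34.07 M in the TAC+PDE9A-I libraries. Levels below are in CPM, the usual unit of counts relative to the total of a library, after TMM scaling, and differences are log2 fold changes of TAC+PDE9A-I minus TAC from edgeR's quasi-likelihood test, called at a Benjamini-Hochberg adjusted p under 0.05 over all 14135 genes tested. The summed level of 12 heart muscle cell markers was 58590 to 98130 CPM in TAC and 78720 to 115600 CPM in TAC+PDE9A-I, and the summed level of lung markers was at most 0.462 CPM. In a principal component analysis of the 11 libraries the groups overlapped on the leading component, which held 41.4% of the variance: TAC ran from -24.2 to 44.5 and TAC+PDE9A-I from -48.3 to 29.1. TAC+PDE9A-I libraries 1 and 4 stood apart on the next component, which held 17.2%, at 38.9 and 32.4, with the other 9 between -17.9 and 2.8. Results that rest on these libraries are given with and without them.

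A single gene was called. Cd79a, which encodes a signalling chain of the B cell antigen receptor, was lower under the inhibitor. It was 1 of 14135 genes, or 0.00707%, and no gene was called higher. Without adjustment 2061 genes, 14.6%, had a p under 0.05: 1073 higher, 7.59% of all tested, and 988 lower, 6.99%. The median log2 difference over all genes was 0.0048 and 51.1% of genes had a positive and 48.9% a negative one. Against this background the gene lists below are described by their counts and medians. The same fit called 3558 genes (25.2%) between TAC and sham and 540 (3.82%) between TAC+PDE9A-I and sham.

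Cd79a (ENSMUSG00000003379.7) lies on the plus strand of chromosome 7 at chr7:24897381-24902197 (GRCm38). Because it was the called gene, the RefSeq sequence around its start in GRCm38.p6 is shown, chr7:24897247-24897546, plus strand. It runs from 250 bases before to 50 bases after the RefSeq start of transcription, with the bases after that start in capitals. The RefSeq start lies inside the gene span given above, which is that of GENCODE, so some of the lower-case bases fall in that span.
Cd79a: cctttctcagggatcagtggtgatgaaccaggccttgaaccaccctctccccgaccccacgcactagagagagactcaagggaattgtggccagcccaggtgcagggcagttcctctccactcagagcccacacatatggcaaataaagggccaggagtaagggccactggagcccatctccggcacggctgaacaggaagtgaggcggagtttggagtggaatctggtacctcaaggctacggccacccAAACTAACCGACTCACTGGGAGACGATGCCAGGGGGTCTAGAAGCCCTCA
The octamer ATGCAAAT and a core of the EBF1 site, TCCC and GGGA with any 2 bases between, are known from B cell promoters. Neither had an exact match in this window on either strand. Sites that depart from these letters were not searched for, so the window is not shown to lack a site for EBF1. These letters occur in 1.74% and 0.904% of 32851 promoter windows of this length.

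The Cd79a level was 0.893, 0.584, 0.578, 0.624 and 0.5565 CPM in TAC libraries 1 to 5. In the 6 TAC+PDE9A-I libraries it was 0.152 at the lowest, 0.215 at the median and 0.251 at the highest. Every inhibitor library lay below every TAC library, and TAC library 1 was the highest. The log2 difference was -1.62 (SE 0.25), with an adjusted p of 0.0286 in edgeR's quasi-likelihood test. The gene is scarce in ventricle: these levels are 13 to 26 counts per TAC library and 4 to 7 per TAC+PDE9A-I library. Sham hearts had a mean of 0.304 CPM ± 0.102 (SD, n = 5). Cd79a was 1.08 higher on the log2 scale in TAC than in sham (adjusted p 0.0064), and TAC+PDE9A-I against sham gave -0.53 (adjusted p 0.26). Leaving out any 1 library other than TAC+PDE9A-I library 2 ended the call, with an adjusted p between 0.051 and 0.168, while the difference stayed between -1.67 and -1.48. The call was also lost with no filter on low counts (adjusted p 0.0623) and with voom sample weights (0.0752). It was lost too with only the 11 libraries fitted (0.261) and with a term for the series of ear tags (0.118). It held with DESeq2's size factors in edgeR (adjusted p 0.03) and in DESeq2's own test. Ear tags in the 500 series mark 4 of the 6 TAC+PDE9A-I libraries and 1 of the 5 TAC libraries; the labels do not say what the series stand for.

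Cd79b encodes the partner chain of the same receptor. Its levels were 1.89, 1.26, 1.16, 1.35 and 1.048 CPM in TAC and 0.419 to 0.701 CPM, with a median of 0.643, in TAC+PDE9A-I. The groups did not overlap, and the difference of -1.15 (SE 0.20) had an adjusted p of 0.0628. DESeq2 called Cd79b, and so did edgeR without TAC+PDE9A-I library 2. Sham lay at 0.492 to 0.771 CPM, which overlaps the inhibitor group.

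The B cell list held 18 genes, of which 13 were in the table and 11 could be tested; immunoglobulin constant genes were not analysed here. Beside the called Cd79a, 9 more of the 11 had negative differences, and the median was -0.92, against 0.0048 over all genes. A stricter filter on low counts, which left fewer members, gave a median of -0.45. Without adjustment 7 of the 11 had a p under 0.05 and a negative difference, where 6.99% of all genes did. In 4 of the 11, among them Cd79a, Cd79b and Ms4a1, the 2 groups did not overlap; 0.509% of all genes were without overlap. Ebf1 was the member with a positive difference, 0.09. It is a transcription factor that other cells of the heart also express, and at a mean of 26.75 CPM in TAC it made up most of the list's summed level. Ebf1 left out, the 12 other members in the table summed to 11.96, 9.612, 8.186, 8.541 and 8.217 CPM in TAC, or 214 to 348 counts. They summed to between 4.312 and 5.865 CPM, or 103 to 197 counts, in TAC+PDE9A-I and to between 4.122 and 7.776 CPM in sham. The sums did not overlap between TAC and TAC+PDE9A-I.

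The other genes of this kind, named after their values were seen, had adjusted p-values of 0.254. Ms4a1, which encodes a B cell surface protein, was at 1.17, 0.943, 0.546, 0.624 and 0.655 CPM in TAC and at 0.0758 to 0.438 CPM in TAC+PDE9A-I, a difference of -1.42 (SE 0.37). Cxcr5, a chemokine receptor that guides B cells to follicles, differed by -1.63 (SE 0.35), from 0.289 to 0.491 CPM in TAC to 0.0398 to 0.251 CPM. Neither Ms4a1 nor Cxcr5 had overlapping groups. Faim3, the receptor for the Fc part of immunoglobulin M, differed by -1.37 (SE 0.38), and TAC+PDE9A-I library 6 at 0.544 CPM lay within the TAC range of 0.491 to 1.13.

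The other lymphoid lists gave no negative median of this size. The 6 tested T cell genes had a median of 0.65, with 5 positive and 1 negative, and their list summed to 6.08 to 10.1 CPM in TAC and 8.35 to 11.4 CPM in TAC+PDE9A-I. The 5 plasma cell genes had a median of -0.01. The thymus and lymph node list, 6 genes tested, had a median of 0.10. Without TAC+PDE9A-I libraries 1 and 4 these medians were 0.28 for T cells, -0.13 for plasma cells and -0.16 for thymus and lymph node, and a stricter filter on low counts gave 0.21, -0.07 and 0.33. In bulk tissue, fewer cells of a type and less RNA per cell cannot be told apart.

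**Figure D1:**
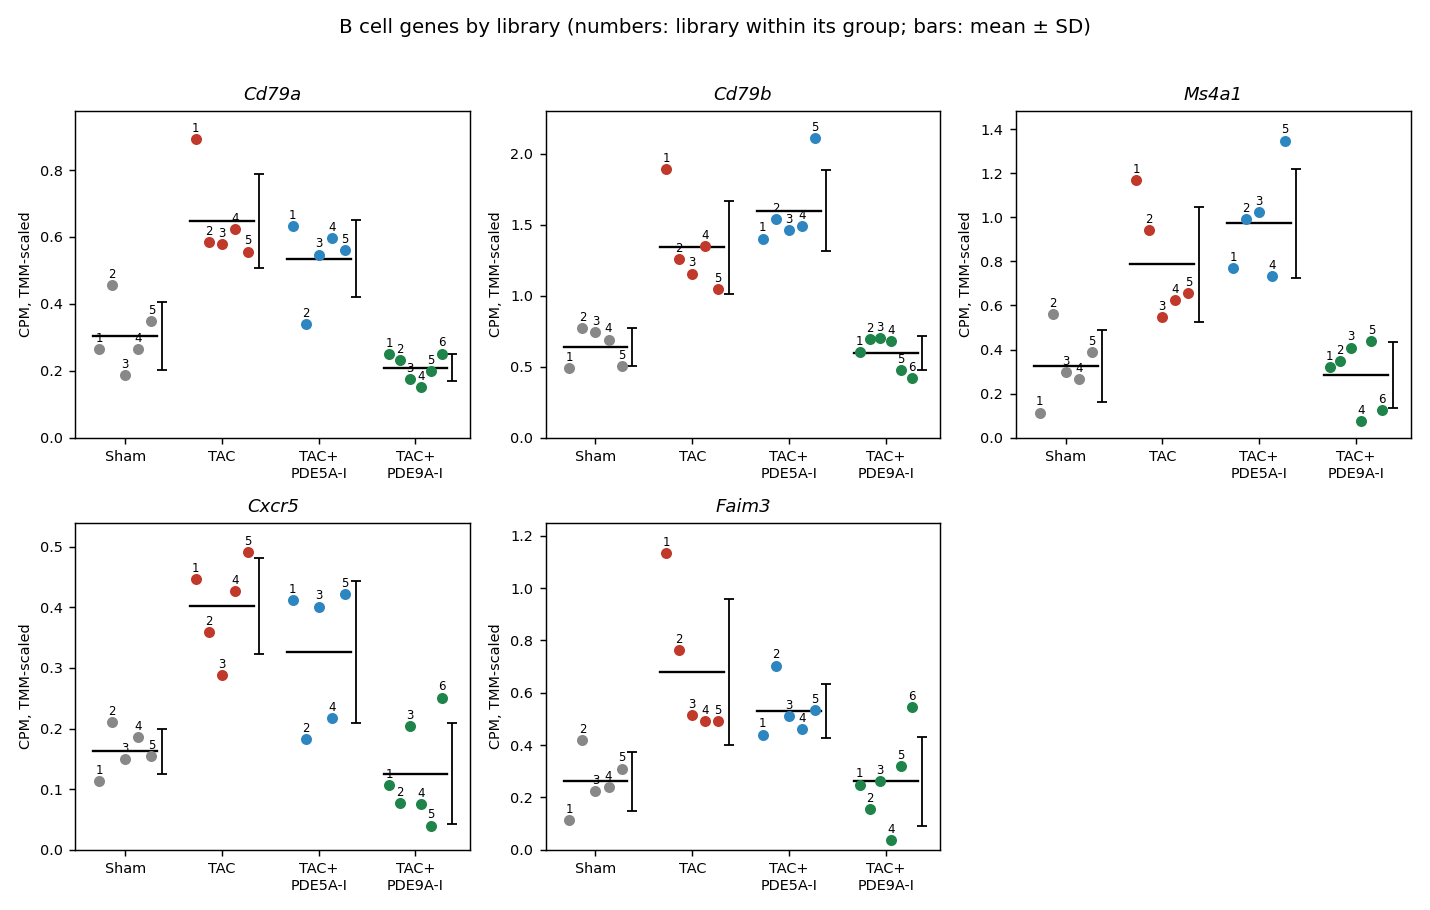
TMM-scaled CPM of 5 B cell genes in each of the 21 libraries by group, each point a library numbered within its group, with the group mean (line) and SD (bar). Cd79a in the 6 TAC+PDE9A-I libraries lay at 0.152 to 0.251 CPM, below the 5 TAC libraries at 0.5565 to 0.893.

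Beyond Cd79a, the 12 genes of lowest p in each direction, scarce ones under a mean of 1 CPM in both groups aside, are given as values, since none was called: their adjusted p was 0.254, apart from 0.0628 for Cd79b. The 12 with positive differences were Ppargc1b, Sh2b1, Rbbp6, Spen, Zfp592, Kmt2b, Ttc7, Bcl9l, Scaf4, Gab1, Madd and G0s2. Several act on chromatin or transcription. Spen, a large nuclear corepressor, was at 28.9, 33.7, 33.6, 30.3 and 24.6 CPM in TAC and at 51.2, 28.2, 45.4, 53.2, 48.4 and 53.0 CPM in TAC+PDE9A-I libraries 1 to 6, a difference of 0.63 (SE 0.13). Library 2 lay in the TAC range and the other 5 above it. Bcl9l, a cofactor of beta-catenin, was at 11.1 to 14.7 CPM in TAC and at 19.1 to 25.9 CPM in the same 5 inhibitor libraries. TAC+PDE9A-I library 2, at 11.05 CPM, lay just below every TAC library. The difference for Bcl9l with all inhibitor libraries was 0.72 (SE 0.16). Kmt2b, a histone methyltransferase, was at 14.1 to 17.4 CPM in TAC, 16.1 CPM in library 2 and 22.2 to 26.9 CPM in the other 5, a difference of 0.50 (SE 0.11).

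TAC+PDE9A-I library 2 was within the TAC range for 9 of these 12 genes, library 3 for 2, library 5 for 1 and libraries 1, 4 and 6 for none. With library 2 left out, edgeR called 46 genes, 41 higher and 5 lower, and 10 of the 12 were among them, all but Gab1 and G0s2. Bcl9l then differed by 0.84 and Spen by 0.73, both with an adjusted p of 0.00537. Leaving out any other single library of the 2 groups gave 0 calls. DESeq2 on all 6 libraries called 28 genes, 18 higher and 10 lower, and called all 12. Nothing in the labels sets library 2 apart. It is singled out by its values in these same genes, which were picked by their p in these data. The calls without library 2 are therefore no separate support for them.

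Ppargc1b, the coactivator PGC-1 beta of mitochondrial genes, had the lowest p of those with a positive difference. It was at 24.5, 25.7, 24.0, 22.9 and 26.3 CPM in TAC and at 25.2 to 38.02 CPM (median 34.8) in TAC+PDE9A-I, a difference of 0.45 (SE 0.09). Its sham libraries were at 28.5 to 36.3 CPM, so that 5 of the 6 inhibitor libraries reached the sham level. Ttc7, a scaffold of the lipid kinase complex at the plasma membrane, did not overlap: 18.9 to 21.6 CPM in TAC and 22.3 to 30.8 CPM in TAC+PDE9A-I, a difference of 0.35 (SE 0.08). G0s2, an inhibitor of triglyceride lipase, was at 19.9, 20.98, 20.0, 26.3 and 34.6 CPM in TAC and at 28.6 to 57.6 CPM in TAC+PDE9A-I, a difference of 0.72 (SE 0.17).

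The 12 genes with positive differences were longer and richer in G and C than the rest: their median transcript length was 5487 bases and their median GC content 57.0%, against 3419 bases and 49.7% over all genes tested. The 12 with negative differences had medians of 2521 bases and 48.7%. Levels of the longest 10% of genes, as the median log2 deviation from the mean of the 11 libraries, ran from -0.095 to 0.006 in TAC and from 0.023 to 0.098 in 5 inhibitor libraries, and stood at -0.105 in library 2. The part of transcript length in these differences was not tested.

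The 12 with negative differences were Cd79b, Stmn2, Nifk, Utp3, Klhl6, Prss23, Fbxl2, Upp1, Atp6v1c1, Pes1, Chmp4b and Chmp3. Stmn2, which destabilises microtubules, was at 5.53, 4.63, 5.75, 7.13 and 5.04 CPM in TAC and at 3.09 to 4.02 CPM in TAC+PDE9A-I, with no overlap and a difference of -0.62 (SE 0.13). Fbxl2, an F-box protein of ubiquitin ligases, had the largest difference of the 12, -1.40 (SE 0.35), from 0.943 to 2.20 CPM in TAC to 0.209 to 0.963 CPM. Prss23, a secreted serine protease, differed by -0.59 (SE 0.14), from 26.2 to 38.9 CPM to 16.6 to 28.7 CPM. Nifk, Utp3 and Pes1 act in making ribosomes. Each differed little, by -0.28, -0.20 and -0.23, and none of these 3 had overlapping groups. Chmp3 and Chmp4b belong to the membrane-cutting ESCRT-III complex and differed by -0.28 and -0.21. Within this set libraries 2 and 3 of the inhibitor group lay in the TAC range for 2 and 6 genes and the other 4 libraries for none. Without library 2, 3 of these 12 were called, and DESeq2 on all 6 libraries called 8.

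**Figure D2:**
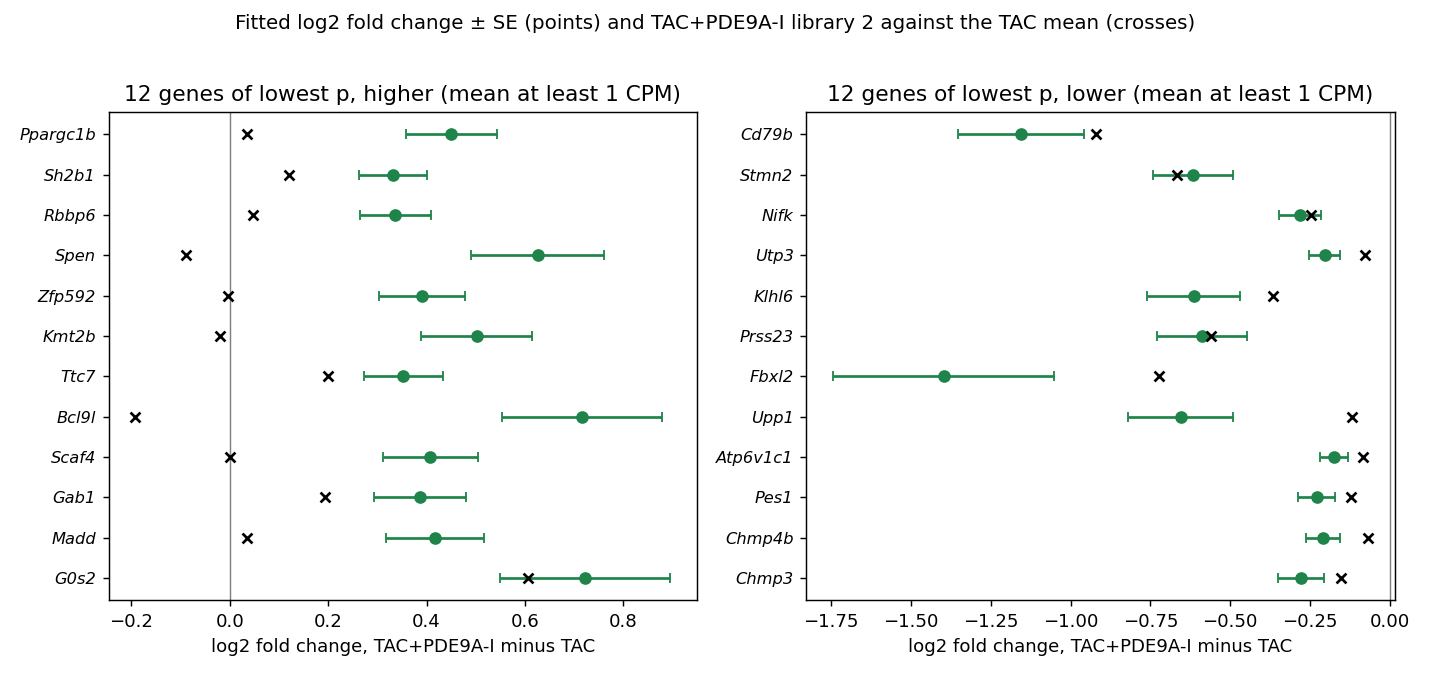
Fitted log2 fold change of TAC+PDE9A-I minus TAC with its SE (points and bars) for the 12 genes of lowest p in each direction, and, as crosses, TAC+PDE9A-I library 2 against the mean log2 CPM of TAC. The crosses on the left lie mostly near 0, as library 2 was in the TAC range for 9 of 12.

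Of the genes that make, break down or carry out the signal of cyclic GMP, 34 of 38 listed could be tested and none was called; 19 differences were positive and 15 negative, with a median of 0.02. Without adjustment 6 had a p under 0.05 with a positive and 3 with a negative difference. Pde9a itself, the gene of the inhibited enzyme, was at 4.53, 2.92, 3.34, 4.63 and 2.62 CPM in TAC and at 1.49, 3.31, 3.77, 2.01, 1.95 and 2.05 CPM in TAC+PDE9A-I. Inhibitor libraries 2 and 3 lay within the TAC range and the other 4 below it; the difference was -0.57 (SE 0.26, adjusted p 0.320). An inhibitor acts on the enzyme and not on its transcript, so this does not check the labels.

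Other phosphodiesterases lay closer to 0. Pde5a differed by 0.02 (SE 0.11), Pde1a by 0.03 (SE 0.20), Pde2a by -0.04 (SE 0.10) and Pde1c by -0.20 (SE 0.14). Pde3a, which breaks down cyclic AMP and is held back by cyclic GMP, differed by 0.40 (SE 0.13, adjusted p 0.254): TAC was at 65.0, 77.4, 55.9, 49.6 and 68.0 CPM and TAC+PDE9A-I at 62.8 to 104.6 CPM, with libraries 2, 3 and 4 in the TAC range and the others above it. The protein kinase gene Prkg1 differed by 0.02 (SE 0.08) and Npr1, the receptor of atrial and B-type natriuretic peptides, by 0.01 (SE 0.11). The sign of Pde1a, Pde2a, Pde5a, Prkg1 and Npr1 turned under some settings.

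Of the genes that make the peptides, Furin and Corin encode proteases that cleave natriuretic peptide precursors. Furin was at 60.9, 63.7, 61.4, 76.7 and 62.0 CPM in TAC and at 68.5 to 100.6 CPM (median 76.3) in TAC+PDE9A-I, a difference of 0.33 (SE 0.09, adjusted p 0.254). TAC library 4 was high within its group. Corin differed by 0.23 (SE 0.11). Npr2, the receptor of C-type natriuretic peptide, differed by 0.20 (SE 0.06, adjusted p 0.254). Rgs2, a target of protein kinase G that restrains Gq signalling, differed by 0.50 (SE 0.26) and TAC+PDE9A-I against sham gave -1.03 (adjusted p 0.034).

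Genes of the fetal and hypertrophic programme leaned lower, and none was called. Of 16 tested, 14 differences were negative, the median was -0.70, and 8 had a p under 0.05 without adjustment, all negative. Nppa, the atrial natriuretic peptide gene, was at 3574, 409.4, 4542, 4078 and 980.9 CPM in TAC and at 345.9, 717.6, 3090, 1196, 268.4 and 276.8 CPM in TAC+PDE9A-I. TAC library 2 lay amid the lower inhibitor libraries and inhibitor library 3 amid the TAC libraries, so that the groups overlapped; the difference was -1.47 (SE 0.69, adjusted p 0.338). Nppb, the B-type peptide gene, was at 899.3, 308.9, 864.2, 1226 and 503.1 CPM in TAC and at 173.3 to 683 CPM in TAC+PDE9A-I, a difference of -0.81 (SE 0.35, adjusted p 0.309). Rcan1, a calcineurin target, had the lowest p of the list: TAC at 403.9, 116.1, 386, 450.6 and 199.5 CPM, TAC+PDE9A-I at 78.0 to 219.2 CPM, a difference of -1.12 (SE 0.39, adjusted p 0.254).

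Myh7, the slow myosin heavy chain of the fetal ventricle, was at 6046, 2783, 8670, 7648 and 3577 CPM in TAC. In TAC+PDE9A-I libraries 1 to 6 it was at 2955, 1747, 9100, 4401, 592.3 and 431.7 CPM. The inhibitor group was spread over a wider range than TAC, with library 3 above every TAC library and libraries 2, 5 and 6 below every one; the difference was -0.84 (SE 0.71, adjusted p 0.603). Against sham, Myh7 in TAC+PDE9A-I rose by 3.72 on the log2 scale (adjusted p 0.027). Acta1, skeletal actin, differed by -0.35 (SE 0.56) and by 0.09 without TAC+PDE9A-I libraries 1 and 4. Myh6, the adult myosin heavy chain, was at 26190, 38230, 23560, 16690 and 32600 CPM in TAC and at 28240 to 47900 CPM in TAC+PDE9A-I, a difference of 0.45 (SE 0.18, adjusted p 0.282). Sarcomere and Z-disc genes had a median of 0.11 over 23, with 18 positive.

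Calcium handling and ion channel genes leaned the other way. Of 30 tested, 26 differences were positive, the median was 0.20, and 10 had a p under 0.05 without adjustment, all positive, where 7.59% of all genes did; none was called. Atp2a2, the calcium pump of the sarcoplasmic reticulum, was at 10350, 14290, 9432, 6995 and 13170 CPM in TAC and at 10570 to 19470 CPM in TAC+PDE9A-I, a difference of 0.42 (SE 0.17, adjusted p 0.291). Libraries 5 and 6 were highest, at 17500 and 19470 CPM. Ryr2, the calcium release channel, was at 3386, 4685, 4010, 3019 and 4190 CPM in TAC and at 3928 to 6711 CPM in TAC+PDE9A-I, a difference of 0.40 (SE 0.15, adjusted p 0.264). Kcnh2, a repolarising potassium channel, had the lowest p of the list, with a difference of 0.55 (SE 0.17, adjusted p 0.254): TAC at 30.9 to 50.3 CPM and TAC+PDE9A-I at 43.1 to 76.5 CPM. The 12 heart muscle cell markers had a median of 0.18, with 11 positive.

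Extracellular matrix genes leaned lower. Of 41 tested, 38 differences were negative with a median of -0.48, and 10 had a p under 0.05 without adjustment, all negative; none was called. Spp1, the secreted protein osteopontin, was at 4.26, 1.57, 10.7, 17.0 and 5.04 CPM in TAC and at 2.92, 1.12, 2.31, 6.90, 0.956 and 0.377 CPM in TAC+PDE9A-I, a difference of -1.66 (SE 0.56, adjusted p 0.254). Inhibitor libraries 1, 3 and 4 lay within the TAC range and libraries 2, 5 and 6 below it. Postn, the matricellular protein periostin, was at 952, 278.6, 2187, 2812 and 497.5 CPM in TAC and at 241.3, 370.3, 1322, 640.4, 202.4 and 83.3 CPM in TAC+PDE9A-I, a difference of -1.50 (SE 0.62, adjusted p 0.294). Timp1, an inhibitor of matrix metalloproteases, differed by -1.63 (SE 0.57, adjusted p 0.260). Col1a1, a chain of the main fibrillar collagen, differed by -0.17 (SE 0.52), with TAC+PDE9A-I library 4 highest of all 11 at 780.5 CPM. Its sign turned when TAC library 4 or TAC+PDE9A-I library 5 or 6 was left out.

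Markers of activated fibroblasts had a median of -0.79 over 12, with 9 negative, and summed to 823.8 to 5323 CPM in TAC and 290.7 to 2622 CPM in TAC+PDE9A-I. Wisp1, a matricellular protein of this kind, differed by -1.18 (SE 0.41, adjusted p 0.254). The general fibroblast markers had a median of -0.14 over 12, with 8 negative. Genes of TGF-beta and related ligands had a median of -0.09 over 28, with 21 negative. Without TAC+PDE9A-I libraries 1 and 4 this median was -0.36. The lowest p of the list was that of the co-receptor gene Tgfbr3, with a difference of 0.40 (SE 0.13).

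**Figure D3:**
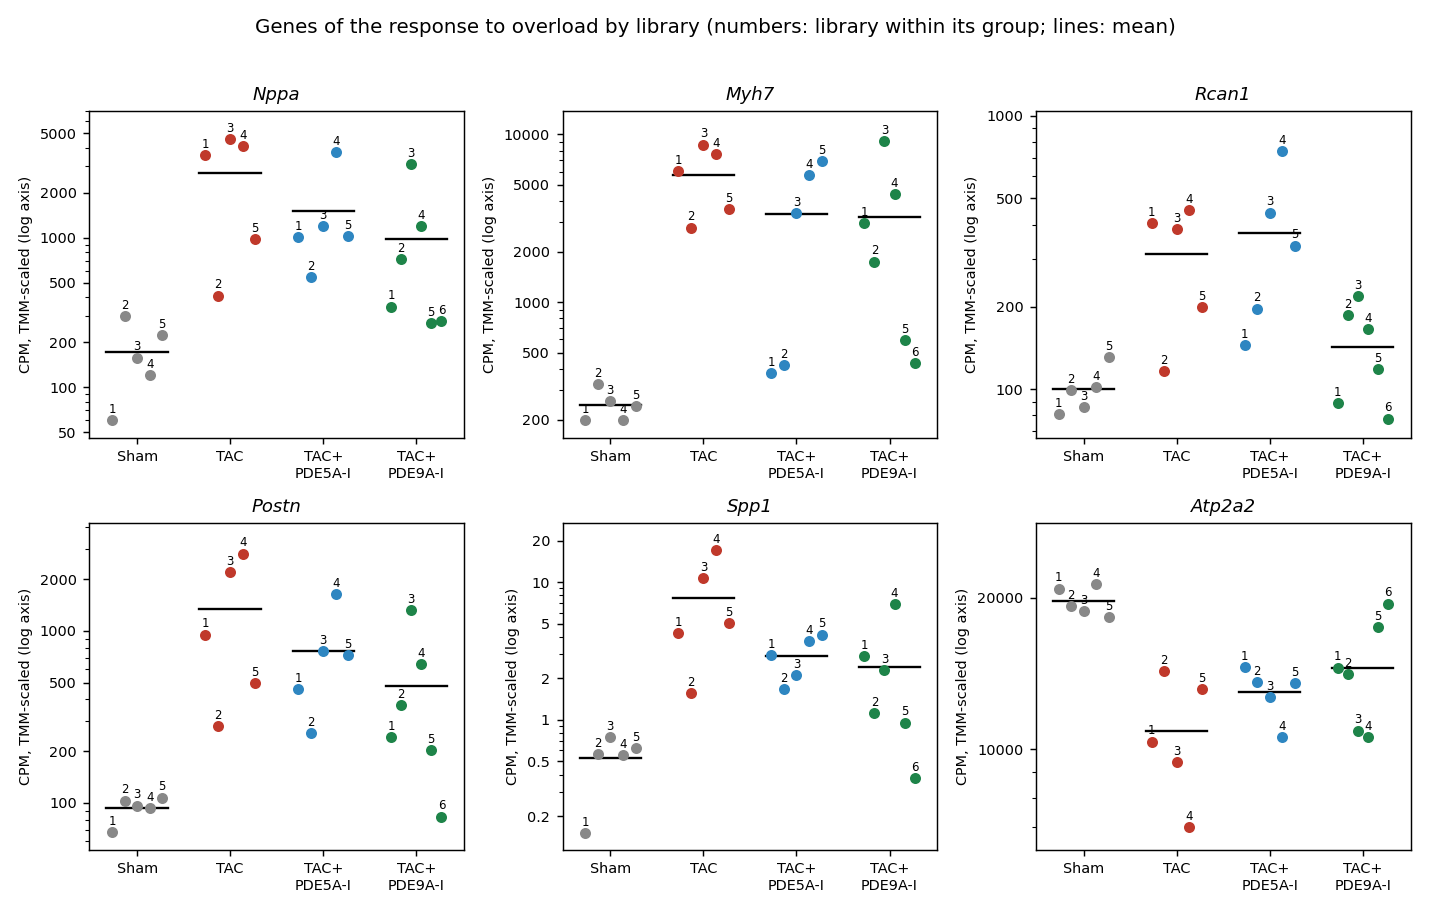
TMM-scaled CPM on a log axis of 6 genes of the response to overload in each of the 21 libraries, numbered within their group, with the group mean as a line. The TAC and TAC+PDE9A-I groups overlapped for all 6 genes, with TAC library 2 low and TAC+PDE9A-I library 3 high in Nppa, at 409.4 and 3090 CPM.

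Oxidative energy metabolism leaned higher by small amounts, and no gene of these lists was called. Glycolysis and glucose transport did not lean higher, with 8 of 22 positive and a median of -0.05. All 34 tested genes of nuclear-encoded oxidative phosphorylation had positive differences, with a median of 0.11, but none had a p under 0.05 even without adjustment. Fatty acid uptake and oxidation gave 30 of 32 positive with a median of 0.19 and none under 0.05; Lpl, lipoprotein lipase, had the lowest p, with a difference of 0.34 (SE 0.16, adjusted p 0.343). The tricarboxylic acid cycle and pyruvate dehydrogenase gave 21 of 23 positive with a median of 0.14. The genes of such a list share the same 11 libraries, so the count of one sign is not a count of independent results.

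Regulators of these genes gave 14 of 17 positive with a median of 0.19, and 5 had a p under 0.05 without adjustment, all positive. They include Ppargc1b, given above. Ppargc1a, the related coactivator PGC-1 alpha, was at 92.9, 124.2, 77.9, 81.4 and 87.5 CPM in TAC and at 91.4 to 154.4 CPM (median 119.7) in TAC+PDE9A-I, a difference of 0.40 (SE 0.16, adjusted p 0.282). Ppara, the nuclear receptor of fatty acid oxidation genes, was at 106, 142.3, 92.1, 84.0 and 98.5 CPM in TAC and at 103.2 to 168.9 CPM in TAC+PDE9A-I, a difference of 0.39 (SE 0.15, adjusted p 0.275). Inhibitor libraries 1, 5 and 6 held the 3 highest levels of both genes.

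Interferon-induced genes were set apart in TAC+PDE9A-I library 1 and, less so, in library 4. Interferon gamma is known to induce the GTPases that guard cells against intracellular microbes, here Igtp, Irgm1, Iigp1 and Gbp2, and genes of antigen presentation. The RefSeq promoters (GRCm38.p6) of 3 of them are shown because all 3 genes were highest in library 1. They are Igtp at chr11:58199306-58199605 on the plus strand, Irgm1 at chr11:48871371-48871670 on the minus strand and Gbp2 at chr3:142620413-142620712 on the plus strand. Capitals mark the core of the interferon-stimulated response element (2 copies of GAAA with any 2 bases between), on either strand, and the gamma-activated site, TTCNNNGAA.
Igtp: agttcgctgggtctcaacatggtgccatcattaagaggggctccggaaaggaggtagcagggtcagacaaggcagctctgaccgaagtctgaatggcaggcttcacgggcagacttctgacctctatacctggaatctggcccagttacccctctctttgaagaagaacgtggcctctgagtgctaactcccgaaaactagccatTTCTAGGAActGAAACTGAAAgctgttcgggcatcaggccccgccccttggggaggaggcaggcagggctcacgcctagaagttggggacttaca
Irgm1: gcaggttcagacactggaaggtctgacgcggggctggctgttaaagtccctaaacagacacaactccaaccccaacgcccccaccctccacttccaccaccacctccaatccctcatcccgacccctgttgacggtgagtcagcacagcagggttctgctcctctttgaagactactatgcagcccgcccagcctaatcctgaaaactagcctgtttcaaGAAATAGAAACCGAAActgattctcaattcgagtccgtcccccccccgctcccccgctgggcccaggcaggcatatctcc
Gbp2: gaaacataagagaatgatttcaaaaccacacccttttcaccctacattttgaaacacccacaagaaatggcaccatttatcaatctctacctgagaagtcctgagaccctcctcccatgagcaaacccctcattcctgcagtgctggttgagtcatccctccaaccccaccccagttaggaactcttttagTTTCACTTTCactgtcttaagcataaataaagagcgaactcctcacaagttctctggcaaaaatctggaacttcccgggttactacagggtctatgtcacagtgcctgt
The response element core was found in all 3, where 3.44% of 32851 promoter windows of this length hold it. As these genes are known to be induced by interferon, the match was likely beforehand and is not a result of these libraries. Counted from the RefSeq start, the core began 34 bases before it in Igtp, 30 in Irgm1, where 2 matches overlap, and 59 in Gbp2. In Irgm1 and Gbp2 the RefSeq start lies inside the GENCODE gene span. The gamma-activated site was found in Igtp, 45 bases before the start; 8.3% of windows hold it. Promoters were looked up for 7 genes and found for 4.

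Igtp was at 17.0, 20.4, 11.8, 19.6 and 18.0 CPM in TAC and at 234.6, 21.4, 25.5, 58.8, 20.0 and 21.9 CPM in TAC+PDE9A-I libraries 1 to 6. Library 1 was far above all others and library 4 next. Libraries 2, 3 and 6 lay above every TAC library by less, and library 5 lay within the TAC range. The difference was 1.88 (SE 0.53, adjusted p 0.254) with all libraries and 0.35 (adjusted p 0.296) without libraries 1 and 4. For Irgm1 the difference went from 0.73 to 0.04 when they were left out, with 98.6 and 40.2 CPM in libraries 1 and 4 and 21.5 to 25.6 CPM in TAC. Iigp1 went from 1.26 to 0.19, with 433.8 and 161.5 CPM in these libraries and 42.1 to 76.1 CPM in TAC. Gbp2 went from 0.41 to -0.09, with 82.96 and 39.1 CPM in these libraries and 22.8 to 38.6 CPM in TAC. Library 4 was thus close to the top of TAC for Gbp2. F830016B08Rik, a predicted GTPase of the same kind, reached 1090 and 185.5 CPM, against 14.9 to 34.4 CPM in TAC. These GTPases are families of similar genes, so that reads may be shared between members.

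H2-K1, a class I antigen-presenting chain, was at 163.6, 162.5, 125.6, 164.8 and 135.7 CPM in TAC and at 631.1, 151.7, 154, 310.9, 124.5 and 126.2 CPM in TAC+PDE9A-I. Its difference was 0.73 (SE 0.32, adjusted p 0.310), and -0.12 without libraries 1 and 4. Over class I presentation genes all 12 differences were positive with a median of 0.43, and the median was -0.12 without the 2 libraries. Class II presentation genes went from 0.31 to -0.35 and interferon-stimulated genes from 0.15 to -0.16. None of these genes was called with either set of libraries. The share of counts on the ribosomal precursor Rn45s was 0.326% in library 1 and 0.416% in library 4, against 0.23% to 0.278% in the other 9; its part in the interferon values was not tested. Library 4 alone was high in C3, the central complement component, at 1216 CPM against 198.2 to 424.7 CPM in the other inhibitor libraries, and in the T cell gene Cd8a, at 1.21 CPM against 0.27 to 0.604 CPM.

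**Figure D4:**
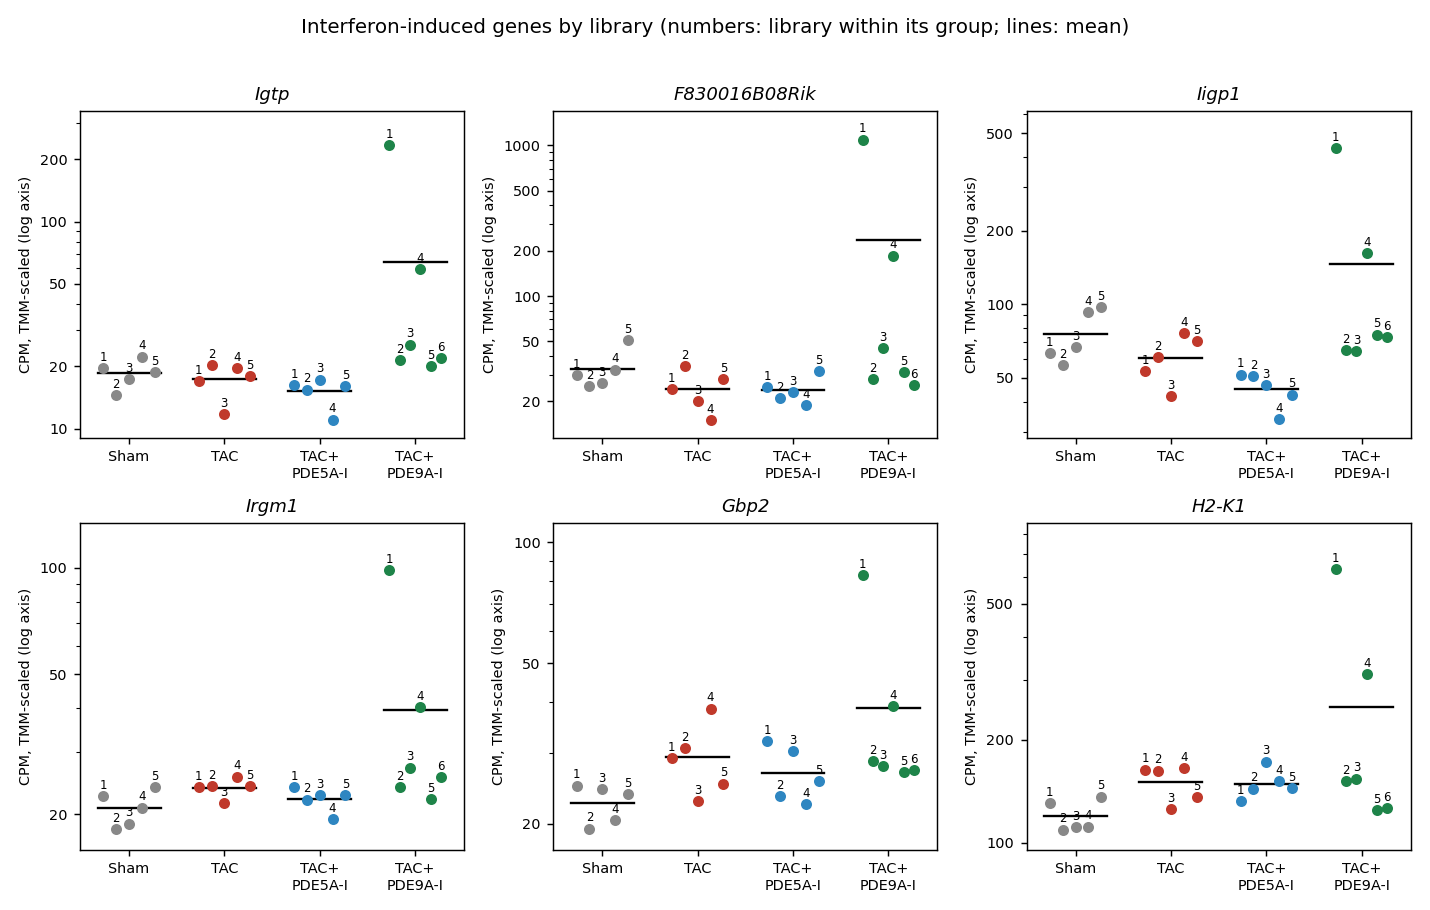
TMM-scaled CPM on a log axis of 6 interferon-induced genes in each of the 21 libraries, numbered within their group, with the group mean as a line. TAC+PDE9A-I library 1 was highest and library 4 next in all 6, with Igtp at 234.6 and 58.8 CPM against 11.8 to 20.4 CPM in TAC.

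Among the 54 lists with at least 3 tested members, leaving out libraries 1 and 4 left the B cell, fetal, matrix, activated fibroblast, calcium handling and energy lists on the same side of 0. The B cell median went from -0.92 to -1.21, the activated fibroblast median from -0.79 to -1.33, the matrix median from -0.48 to -0.77 and the fetal median from -0.70 to -0.60. Immediate early genes, early transcription factors of stimulated cells, went from 0.27 to -0.27. No gene was called without these libraries, the lowest adjusted p being 0.269 and 2250 genes having an unadjusted p under 0.05.

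**Figure D5:**
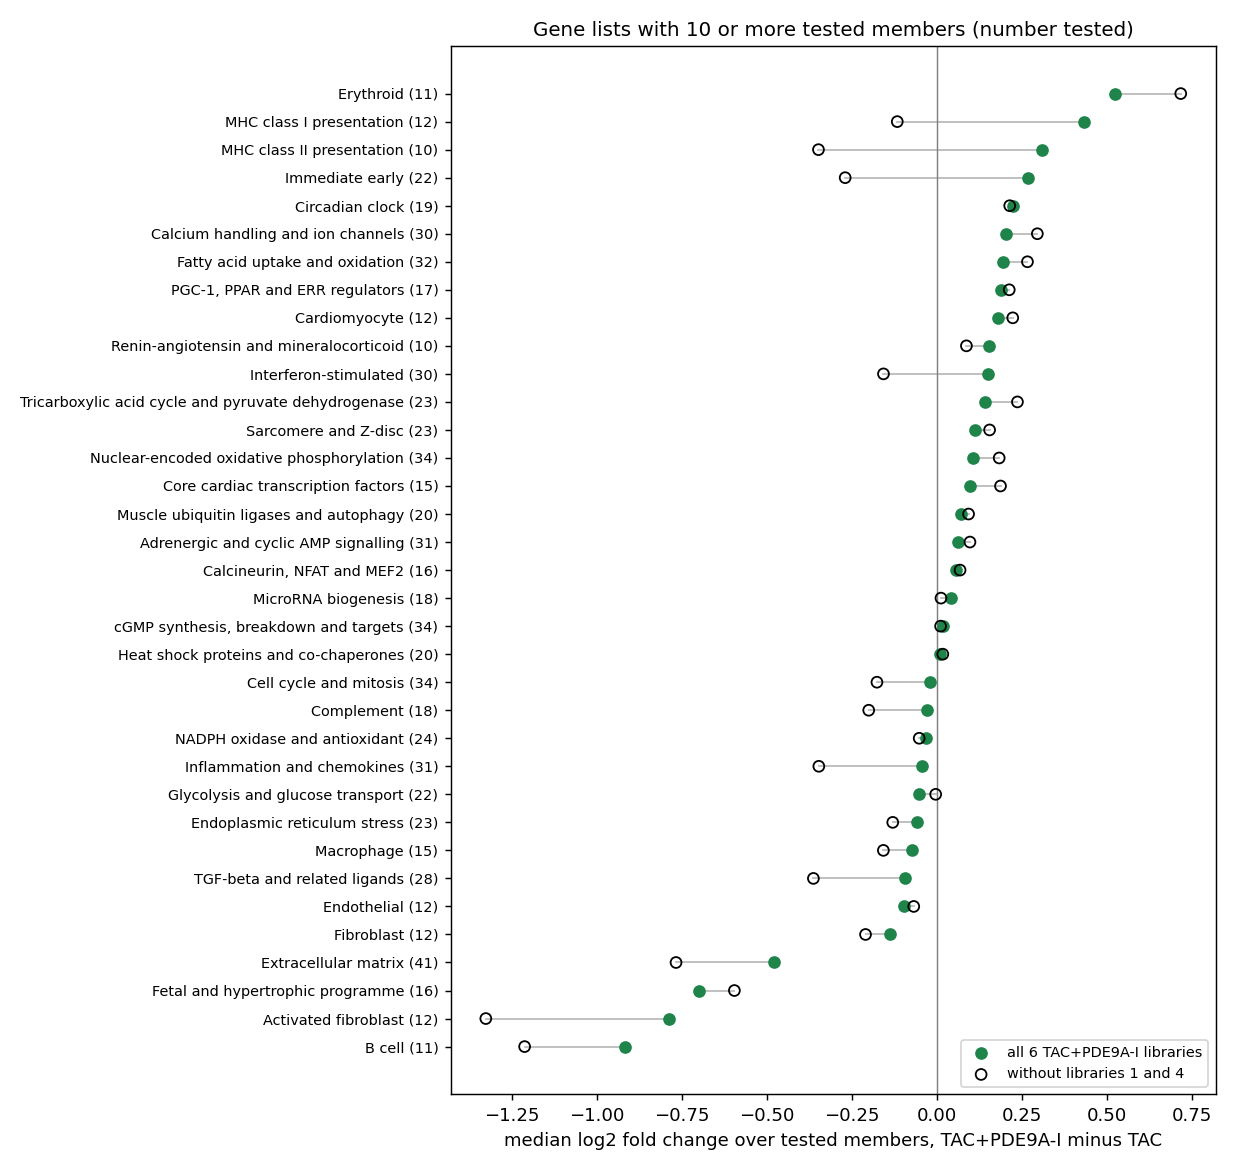
Median log2 fold change of TAC+PDE9A-I minus TAC over the tested members of each gene list with 10 or more of them (number in brackets), with all 6 inhibitor libraries (filled) and without libraries 1 and 4 (open). The B cell list had the lowest median with all libraries, -0.92, and the class I list moved from 0.43 to -0.12.

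Of the remaining lists, circadian clock genes had a median of 0.22 over 19. The clock repressor gene Per1 was at 22.4, 21.2, 17.5, 11.9 and 25.99 CPM in TAC and at 19.1 to 61.1 CPM in TAC+PDE9A-I, a difference of 0.91 (SE 0.30, adjusted p 0.254); the labels give no time of day of collection. Core cardiac transcription factors had a median of 0.10 over 15, and 6 had a p under 0.05 without adjustment, all positive, led by Gata6 at 0.40 (SE 0.10). Red cell genes had a median of 0.52 over 11, all positive, and summed to 575.1 to 1295 CPM in TAC and 732.6 to 2506 CPM in TAC+PDE9A-I. Macrophage, endothelial and pericyte markers had medians of -0.07, -0.10 and 0.07. Cell cycle genes had a median of -0.02 over 34; Cenpf, a kinetochore protein gene, was at 7.79 to 14.3 CPM in TAC and at 11.7 to 29.9 CPM in 5 inhibitor libraries, with 96.5 CPM in library 6 and a difference of 1.54 (SE 0.49, adjusted p 0.254).

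Set against the TAC mice given the PDE5A inhibitor, for which doses are not given either, 1 gene was called, again 0.00707%. Cd79b was lower under the PDE9A inhibitor, with a log2 difference of -1.41 (SE 0.19, adjusted p 0.00591), with levels of 1.40 to 2.11 CPM in the PDE5A inhibitor group and 0.419 to 0.701 CPM in the PDE9A inhibitor group. For Cd79a this difference was -1.34 (SE 0.25, adjusted p 0.0866). For Nppa, Myh7 and Postn it was -0.61, -0.07 and -0.69, and none of these was called. This comparison and that with TAC share the 6 TAC+PDE9A-I libraries.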

How the data were processed

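RNA was sequenced from the left ventricle of 21 mice. The deposited table holds expected counts per gene, not normalized, for 24054 rows, and 19% of its values have decimals. The submitters' processing notes name the build mm10 and, with no order or role, the tools RSEM 1.3.0, HISAT2 2.0.5, CASAVA 1.8.4 and DESeq2 1.18.1. Counts were rounded to whole numbers, and genes were kept by edgeR's filterByExpr, leaving 14135. All 4 groups were fitted together with edgeR 4.0.16 (TMM scaling, quasi-likelihood test; R 4.3.3) so that they shared 1 estimate of the spread, and p-values were adjusted by Benjamini-Hochberg over all genes tested. The alternatives used DESeq2 1.42.0, limma 3.58.1 with voom sample weights, another scaling, other filters, the ear tag series as a term, a replicate block and libraries left out. The 27 rows whose symbols had turned into dates cannot be named. Counting error at a few counts per library limits the precision for scarce genes such as Cd79a. No 2 libraries of a group agreed within sampling noise (lowest chi-square per degree of freedom 11.6).

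The text names the 12 largest called changes in each direction that reach 1 CPM and do not overlap between the groups, filled to 12 by lowest p; from each list up to 4 called members or the member of lowest p; a fixed set of load and cyclic GMP genes; and genes said to be named after their values were seen, among them Cd79b, Ms4a1, Cxcr5, Faim3, Timp1, Ryr2, Ppara, Ppargc1a, Iigp1, Irgm1, Gbp2, F830016B08Rik and Cyp1a1. The 28 pathway and 28 cell type lists, and the comparison itself, were chosen with earlier results of these data known. Some genes the rule would name are not reported here.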

Additional observations from a re-analysis of the deposited data

Results flagged for a closer look

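In 216 sets of values (the named genes and the totals, in TAC and in TAC+PDE9A-I) the highest or lowest library was checked for standing apart by Dixon's criterion, and 18 did. Chance gives about 1 in 20 such sets, but the count is no test: some of these genes, among them Irgm1, Iigp1, Gbp2 and F830016B08Rik, were named after their values were seen, and the genes share the same libraries.

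In the TAC group, library 1 was high in Cd79a at 0.8932 CPM, against 0.5565 to 0.6241 CPM in the other 4, and low in Kmt2b at 14.05 CPM. Library 4 was high in Furin at 76.67 CPM, library 5 was low in the phosphodiesterase gene Pde1c at 104.4 CPM, and library 2 had the smallest total, 22.67 M counts.

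In the TAC+PDE9A-I group, 6 of the 13 came from library 1. They were the interferon-induced genes Igtp (234.6 CPM), Irgm1 (98.6 CPM), Iigp1 (433.8 CPM), Gbp2 (82.96 CPM), F830016B08Rik (1090 CPM) and the class I gene H2-K1 (631.1 CPM), and library 4 held the next highest value of each. Library 4 stood apart in C3 at 1216 CPM and in Cd8a at 1.213 CPM. Library 6 was high in Cenpf at 96.45 CPM and in Adrbk1, a kinase of adrenergic receptors, at 63.21 CPM, and low in Prkg1 at 36.46 CPM. Library 3 was high in Nppa at 3090 CPM, and library 2 low in Spen at 28.22 CPM.

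Cd79b differed between the inhibitor groups, by a log2 difference of -1.41 (adjusted p 0.00591) for TAC+PDE9A-I minus TAC+PDE5A-I.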

How the results depend on the processing

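The count of called genes between TAC+PDE9A-I and TAC, 1 with none higher, stayed at 1 with DESeq2's size factors. It was 0, with 0 lower, with no filter on low counts (2190 genes at an unadjusted p under 0.05 in edgeR), a stricter filter (2002), a term for the series of ear tags (2035), only the 11 libraries fitted (1327), voom sample weights (3327) and without TAC+PDE9A-I libraries 1 and 4 (2250). The stricter filter removed Cd79a from the genes tested. DESeq2 called 28, of which 18 higher and 10 lower. Leaving out 1 library at a time gave 0 to 46 called, 0 to 41 higher and 0 to 5 lower; the 46 came without TAC+PDE9A-I library 2. Against TAC+PDE5A-I the count of 1 became 0 with voom sample weights, 34 with DESeq2, 2 without TAC+PDE9A-I libraries 1 and 4, and 1 to 8 with 1 library left out, the 8 without TAC+PDE5A-I library 1. For these changes the cause was not tested, save where fewer samples or genes entered.

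The replicate block gave 0 calls, with 0 lower, against TAC (1167 at an unadjusted p under 0.05) and 0 against TAC+PDE5A-I (1330). The numbers were not taken to pair the samples. The correlation of same-numbered libraries was over 0.1 in 3 of 5 pairs (0.02 to 0.43), and 1 of 5 TAC libraries correlated best with its own number. With 5 pairs this check cannot exclude a pairing.

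Some differences turned sign. With a term for the series of ear tags Pde1a was at -0.0297. With voom sample weights Npr1 was at -0.0062, Pde1a at -0.122, Pde5a at -0.00061 and Prkg1 at -0.0306. Without TAC+PDE9A-I libraries 1 and 4 Acta1 was at 0.092, Gbp2 at -0.0911, H2-K1 at -0.12, Mertk at -0.0222, Npr1 at -0.0692, Pde1a at -0.244, Pde2a at 0.0472 and Prkg1 at -0.0245. With 1 library left out the values ran from -0.801 to 0.174 for Col1a1, -0.333 to 0.089 for Itga2b, -0.141 to 0.146 for Pde1a, -0.11 to 0.0229 for Pde2a, -0.0311 to 0.0922 for Pde5a, -0.0318 to 0.0552 for Npr1 and -0.0151 to 0.0571 for Prkg1.

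Depth limits the called gene: Cd79a rests on 34 counts over the 6 TAC+PDE9A-I libraries and 93 over the 5 TAC libraries.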

Other observations

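Cyp1a1, an enzyme induced through the aryl hydrocarbon receptor, was chosen after its values were seen. It was at 0.275, 0.898, 0.16, 0 and 0.262 CPM in TAC and at 5.33, 0.385, 0.0292, 0.758, 2.51 and 0.628 CPM in TAC+PDE9A-I, and its mean in sham was 2.78 CPM. TAC+PDE9A-I libraries 1 and 5 lay above every TAC library and library 3 below 4 of the 5. The fitted log2 difference was 2.41 (SE 0.89, adjusted p 0.269 in edgeR), and TAC library 4 had no count. Without TAC+PDE9A-I libraries 1 and 4 the difference was 1.52, and over the alternatives it ran from 1.49 to 3.18. Library 1 held 150 of the 259 counts of the inhibitor group. The thyroid hormone deiodinase gene Dio2 differed by -1.66 and the fibroblast gene Mfap5 by -1.07, neither called.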
